A study of Arabidopsis thaliana with 9 samples.

Results

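The genes described here are 54 cyclins, cyclin-dependent kinases (CDKs) and direct regulators of the plant cell cycle, out of 32823 genes with a value in each library of Arabidopsis thaliana seedlings. They were taken by gene identifier from families with known roles in the cycle, and the rule uses no measured value: 9 B-type, 8 A-type and 9 D-type cyclins, 7 CDKs and CKS subunits, 7 KIP-RELATED PROTEIN (KRP) inhibitors, 6 genes of the E2F, RBR1 and MYB3R transcriptional regulators, 5 activators of the anaphase-promoting complex (APC/C) and 3 Aurora kinases. The set was chosen with earlier results of these data known, so the counts of changed genes given below are a description only. Poly(A) RNA of whole seedlings aged 2 weeks was sequenced in 3 libraries of each of 3 genotypes, cyp71-3, se-1 and the wild type Col-0, all grown in long days without treatment. CYP71 is a cyclophilin, an enzyme that isomerises peptide bonds at proline, with WD40 repeats, and SERRATE (SE) is a zinc-finger protein that acts with DICER-LIKE1 in microRNA processing. The study asked how loss of CYP71 affects microRNAs and the mRNAs they target. The labels give the mutants by allele name alone, and they do not say whether the libraries of a genotype came from separately grown plants, so a p-value here speaks of the spread among the deposited libraries only, which may be technical.

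In plants, as in other eukaryotes, a CDK is active only when bound to a cyclin. D-type cyclins with CDKA;1 lead into DNA synthesis by phosphorylating RBR1, which releases E2F factors. A-type cyclins act through S phase and into G2, and B-type cyclins, with the plant-specific B-type CDKs, act in G2 and mitosis. Transcription of many G2 and mitotic genes passes through MYB3R factors, which bind a promoter sequence called the mitosis-specific activator (MSA) element. The APC/C, switched on by CDC20 or CCS52 proteins, then marks cyclins for destruction, and Aurora kinases act at the spindle and the forming cell plate. In a seedling the dividing cells lie mainly in the shoot and root meristems and in young leaves, while most cells no longer divide or go on to copy their DNA without dividing. Every value here is from whole seedlings, in which more cells of a dividing type and more RNA per cell cannot be told apart.

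The libraries were first checked against their labels. CYP71 had 3.70 to 4.41 FPKM (fragments per kilobase of transcript, scaled to library size) in cyp71-3, 17.05 to 18.32 FPKM in se-1 and 16.89 to 19.10 FPKM in Col-0. Its level in cyp71-3 lay below that of Col-0 (adjusted p = 1.63e-09, limma). SE had 32.83 to 33.25 FPKM in cyp71-3, 25.51 to 28.97 FPKM in se-1 and 30.72 to 33.25 FPKM in Col-0, and fell in se-1 (adjusted p = 0.0052, limma). Which part of the SE transcript the se-1 allele alters is not given in the labels, so the level of SE is a weak check. Across tested genes, libraries of one genotype correlated at 0.982 to 0.990 and libraries of different genotypes at 0.931 to 0.963. The deposited values sum to 825338 to 937136 FPKM a library, and the depth in reads is not given. The share of these values from 133 chloroplast genes ran between 0.0313% and 3.44%, the highest in cyp71-3 replicate 1. It was 1.963% in Col-0 replicate 2, 1.873% in se-1 replicate 1 and 1.04% in se-1 replicate 3, and at most 0.055% in every remaining library.

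A gene is called changed here when its limma adjusted p is under 0.05 over all 19180 genes with a mean of at least 1 FPKM, and log2 changes are on the log2(FPKM + 1) scale, mutant minus Col-0, given ± their standard error. This scale understates the change of genes with low levels. Of the 54 cell cycle genes, 53 were tested. CYCA2;1 (AT5G25380), an A-type cyclin, was the exception, with 0.27 to 0.70 FPKM over the 9 libraries. CYCA2;2 was tested although its Col-0 mean of 0.897 ± 0.11 FPKM (SD, n = 3) lay under 1, because its mean over all 9 libraries did not.

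In cyp71-3 the B-type cyclins, the B-type CDKs and the Aurora kinases were all called higher than in Col-0, while the D-type cyclins, KRP inhibitors and E2F and RBR1 genes held calls in both directions. In cyp71-3, 36 of the 53 tested genes were called higher, against 30.6% of all tested genes, and 6 were called lower, against 32.7% of all tested genes. Without Col-0 replicate 1 the count of lower genes was 3. The other 11 were not called, where 63.3% of all tested genes were called in either direction. A rise of at least 1 on the log2 scale was called for 18 genes, against 3.53% of all tested genes, and a fall of at least 1 for 0 genes, against 3.06% of all tested genes. The median log2 change of the 53 genes was 0.69, beside -0.01 for all tested genes. The 3 cyp71-3 libraries did not overlap the 3 Col-0 libraries for 42 genes, and 70.1% of all tested genes showed such a separation.

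The changes in se-1 were smaller. Here 21 of the 53 genes were called higher and 5 lower, against 25.1% of all tested genes in each direction, or 50.2% in either direction. No gene passed a change of 1 on the log2(FPKM + 1) scale in se-1. Of all tested genes, 2.01% were called higher and 1.51% lower by that much. The largest change among the 53 genes was that of CYCB2;3, a B-type cyclin, at 0.91 ± 0.07. Its mean in se-1 was 2.15-fold that in Col-0, since the scale understates the change of low genes. The median log2 change was 0.17, beside 0.00 for all tested genes. The se-1 and Col-0 libraries did not overlap for 29 genes, against 56.7% of all tested genes. Both comparisons use the same 3 Col-0 libraries, so the 2 sets of changes are not independent of each other. Side by side, 16 genes were called higher in both mutants, 19 were called higher in cyp71-3 and not called in se-1, 2 were called lower in both, and 7 were called in neither. Opposite calls were 3 genes lower in cyp71-3 and higher in se-1, and 1 gene higher in cyp71-3 and lower in se-1. Joint shares over all tested genes were not computed, so these counts are a description only. The direct comparison of cyp71-3 with se-1 is given after the classes. Its log2 differences use no Col-0 library, but its p-values do, since all 9 libraries enter the spread and the filter.

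**Figure D1:**
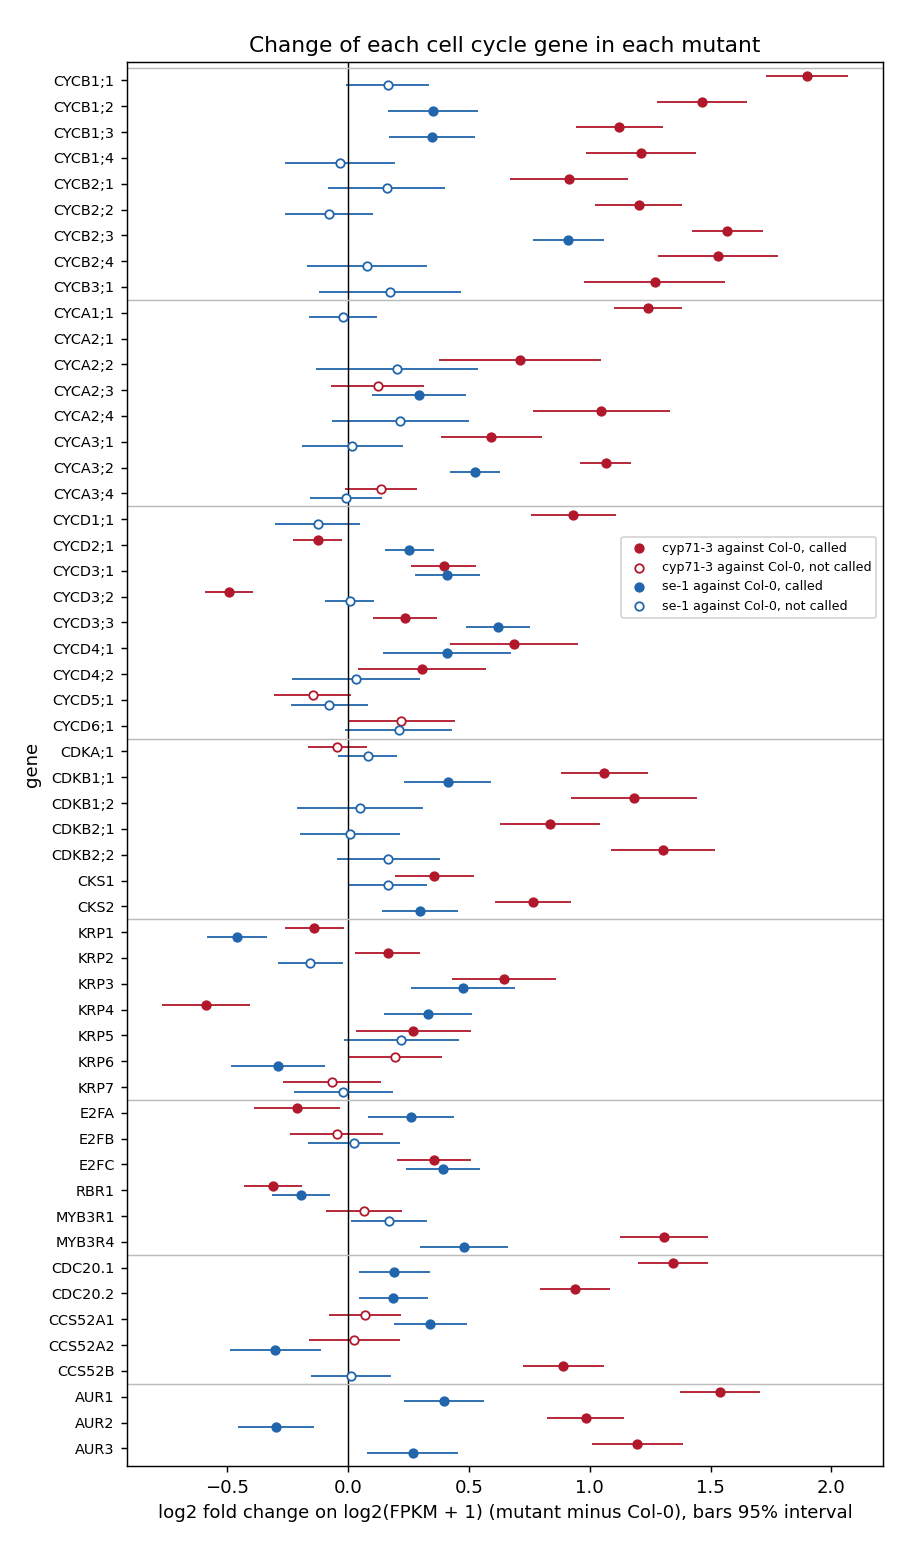
Log2 fold change on log2(FPKM + 1) of each cell cycle gene (rows, in the order of the classes) in cyp71-3 (red) and se-1 (blue) against Col-0, with bars for the 95% interval of the limma fit and filled points for calls. The B-type cyclins, B-type CDKs and Aurora kinases lie to the right in cyp71-3, up to 1.90 for CYCB1;1, while no se-1 point reaches 1, and CYCA2;1 has no point because it was not tested.

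The genes also differed in level. FPKM are scaled to transcript length, so levels can be set beside each other between genes. In Col-0 the highest means were those of the D-type cyclin CYCD3;2 at 64.0 ± 2.4 FPKM, CDKA;1 at 35.5 ± 1.3 FPKM, KRP1 at 26.4 ± 0.52 FPKM and RBR1 at 24.3 ± 0.26 FPKM (SD, n = 3 each). B-type cyclins lay low in that order, with Col-0 means between 1.24 FPKM for CYCB2;1 and 8.87 FPKM for CYCB1;2. By mean level among the 54 genes, CYCB1;1 stood at place 22 in cyp71-3, place 47 in se-1 and place 46 in Col-0, counted from the highest. KRP4 stood at place 24 in cyp71-3, place 3 in se-1 and place 7 in Col-0. The summed level of the 9 B-type cyclins was 105.72 to 111.20 FPKM in cyp71-3, 42.78 to 44.78 FPKM in se-1 and 33.55 to 36.43 FPKM in Col-0.

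Some values carry a limit of counting. Another annotated gene overlaps the body of 20 of the 54 genes in the RefSeq annotation, and no source used here says whether reads were counted by strand, so reads of such pairs may be mixed. These are CYCA2;3, CYCA3;4, CYCD1;1, CYCD3;1, CYCD3;2, CYCD6;1, CDKB1;1, CDKB1;2, CDKB2;1, CDKB2;2, CKS2, KRP4, E2FA, RBR1, MYB3R1, CCS52A2, CCS52B, AUR1, AUR2 and AUR3. Of the stretches of 50 bases in their exons, 33.2% for CDC20.1 and 36.3% for CDC20.2 occur again elsewhere in the genome, so the split of reads between that pair is uncertain. The share was 17.0% for CYCB2;3 and 11.3% for CYCB1;2, and at most 10% for every other gene.

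B-type cyclins bind CDKs to drive entry into and passage through mitosis, and all 9 were called higher in cyp71-3, with a median log2 change of 1.27, while se-1 had 3 called higher and 0 lower of 9 tested (median log2 change 0.16). The se-1 share of 33.3% higher stands beside 25.1% of all tested genes. CYCB1;1 (AT4G37490), the cyclin most used as a marker of cells in G2 and early mitosis and one that plants also switch on after DNA damage, had the largest change of the 53 tested genes in cyp71-3. It had 13.75, 15.63 and 14.13 FPKM in cyp71-3, 3.72, 3.67 and 3.56 FPKM in se-1, and 2.85, 3.23 and 3.39 FPKM in Col-0. The 3 cyp71-3 libraries lay far above the other 6, 4.59-fold the Col-0 mean (log2 change 1.90 ± 0.08, adjusted p = 3.76e-09, limma), which put it at place 127 among the 19180 tested genes ordered by log2 change. In se-1 the change was 0.16 ± 0.08 and was not called (limma adjusted p = 0.101), although the 3 se-1 libraries lay just above those of Col-0.

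CYCB2;3 (AT1G20610) was the B-type cyclin that stood apart in both mutants, with 11.75, 11.75 and 11.47 FPKM in cyp71-3, 6.80, 7.52 and 6.76 FPKM in se-1, and 3.19, 3.17 and 3.44 FPKM in Col-0. The 3 genotypes formed 3 separate steps, with cyp71-3 at the top and Col-0 at the bottom. Its log2 change was 1.57 ± 0.07 in cyp71-3 (limma adjusted p = 5.23e-09) and 0.91 ± 0.07 in se-1 (limma adjusted p = 7.7e-07). CYCB1;2 (AT5G06150) had 23.84, 26.47 and 28.44 FPKM in cyp71-3, 10.55, 12.93 and 11.34 FPKM in se-1, and 9.43, 8.96 and 8.21 FPKM in Col-0, and CYCB1;3 (AT3G11520) had 9.23, 8.70 and 8.80 FPKM in cyp71-3, 5.00, 4.77 and 4.61 FPKM in se-1, and 4.03, 3.17 and 3.50 FPKM in Col-0. Both showed the same order of the genotypes with no overlap. CYCB1;2 changed by 1.46 ± 0.08 in cyp71-3 and 0.35 ± 0.08 in se-1 (limma adjusted p = 5.74e-08 and 0.00489). CYCB1;3 changed by 1.12 ± 0.08 in cyp71-3 and 0.35 ± 0.08 in se-1 (limma adjusted p = 3.73e-07 and 0.00425).

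The other B-type cyclins were called in cyp71-3 and not in se-1. CYCB2;4 (AT1G76310) had 14.54, 16.25 and 14.82 FPKM in cyp71-3, 5.82, 4.44 and 4.58 FPKM in se-1, and 5.46, 3.90 and 4.56 FPKM in Col-0 (log2 change in cyp71-3 1.53 ± 0.11, adjusted p = 4.05e-07, limma). CYCB2;2 (AT4G35620) had 10.30, 11.19 and 10 FPKM in cyp71-3, 3.62, 3.50 and 4.08 FPKM in se-1, and 4.32, 4.03 and 3.65 FPKM in Col-0 (log2 change in cyp71-3 1.20 ± 0.08, adjusted p = 2.29e-07, limma). For both, se-1 and Col-0 overlapped and cyp71-3 lay above every other library. CYCB1;4 (AT2G26760) had 12.45, 12.29 and 11.05 FPKM in cyp71-3, 4.95, 4.16 and 4.27 FPKM in se-1, and 4.68, 3.82 and 5.34 FPKM in Col-0 (log2 change in cyp71-3 1.21 ± 0.10, adjusted p = 1.39e-06, limma). CYCB3;1 (AT1G16330) had 6.30, 5.57 and 5.62 FPKM in cyp71-3, 2.21, 2.45 and 1.95 FPKM in se-1, and 1.27, 2.12 and 2.21 FPKM in Col-0 (log2 change in cyp71-3 1.27 ± 0.13, adjusted p = 7.77e-06, limma). These again split into high cyp71-3 libraries and 6 lower ones in which se-1 and Col-0 overlapped. CYCB2;1 (AT2G17620), the lowest of the class, changed by 0.91 ± 0.11 in cyp71-3 (limma adjusted p = 2.4e-05) and averaged 3.23 ± 0.40 FPKM in cyp71-3, 1.5 ± 0.15 FPKM in se-1 and 1.24 ± 0.12 FPKM in Col-0 (SD, n = 3 each).

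**Figure D2:**
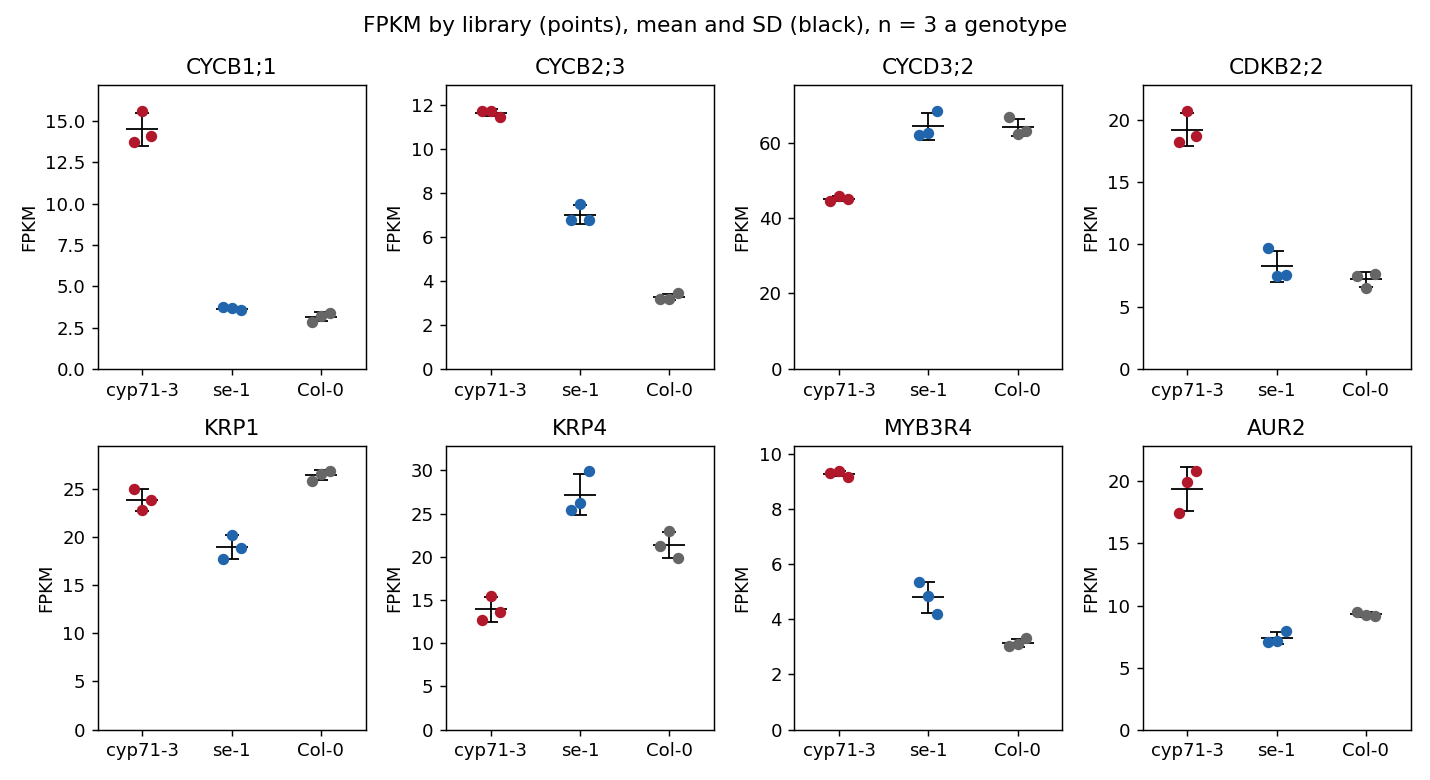
FPKM of 8 cell cycle genes in each library (points) with the mean and SD in black, n = 3 libraries each of cyp71-3 (red), se-1 (blue) and Col-0 (grey), on axes that start at 0. CYCB1;1, CDKB2;2 and AUR2 are high in cyp71-3 alone, CYCB2;3 and MYB3R4 step down across the 3 genotypes, CYCD3;2 is low in cyp71-3, KRP1 is lowest in se-1, and KRP4 is lowest in cyp71-3 and highest in se-1.

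The MSA element that MYB3R factors bind was searched for in the promoters. Those of 3 cyclins called higher in cyp71-3 and of the inhibitor KRP1 (AT2G23430), which was not, are shown here. They are 4 of the 8 promoters with at least 3 matches and were chosen after matches and changes were seen, the cyclins as the 3 with the largest changes in cyp71-3 and KRP1 as the gene with the most matches. Each is the 250 bases before the annotated gene start in RefSeq TAIR10.1, from the minus strand, 5′ to 3′. Capitals mark the MSA core AACGG or, where the element lies on the other strand, its reverse complement CCGTT. CYCB1;1 lies at chr4:17624309-17624558, CYCB1;2 at chr5:1861704-1861953, CYCB2;3 at chr1:7137829-7138078 and KRP1 at chr2:9978091-9978340.
CYCB1;1 promoter: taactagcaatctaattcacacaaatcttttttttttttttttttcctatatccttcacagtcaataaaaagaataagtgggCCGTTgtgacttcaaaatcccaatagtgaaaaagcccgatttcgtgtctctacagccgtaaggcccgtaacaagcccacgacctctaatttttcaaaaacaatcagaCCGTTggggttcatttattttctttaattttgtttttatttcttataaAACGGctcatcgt
CYCB1;2 promoter: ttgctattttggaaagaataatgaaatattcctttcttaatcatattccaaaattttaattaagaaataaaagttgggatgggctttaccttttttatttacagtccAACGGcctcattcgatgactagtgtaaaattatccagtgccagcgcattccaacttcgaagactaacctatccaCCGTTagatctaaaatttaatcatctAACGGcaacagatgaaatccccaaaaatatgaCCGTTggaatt
CYCB2;3 promoter: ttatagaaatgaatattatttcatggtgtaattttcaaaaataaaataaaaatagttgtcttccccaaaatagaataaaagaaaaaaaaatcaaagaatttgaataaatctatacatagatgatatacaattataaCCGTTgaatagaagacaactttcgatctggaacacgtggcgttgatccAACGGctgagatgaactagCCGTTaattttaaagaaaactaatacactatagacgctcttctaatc
KRP1 promoter: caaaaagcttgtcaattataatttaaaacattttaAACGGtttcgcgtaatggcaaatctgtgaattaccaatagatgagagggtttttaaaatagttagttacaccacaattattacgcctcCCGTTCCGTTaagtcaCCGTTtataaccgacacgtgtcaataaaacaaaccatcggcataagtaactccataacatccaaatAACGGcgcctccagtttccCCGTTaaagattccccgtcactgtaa

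The core was found 3 times before CYCB1;1, 4 times before CYCB1;2, 3 times before CYCB2;3 and 6 times before KRP1. The first 3 are cyclins that were higher in cyp71-3, and KRP1, with the most matches, was not. The core, searched on both strands, was present in 20 of the 54 promoters (37%), beside 5644 of 27440 promoters of protein-coding genes (20.6%). It was present in 9 of the 18 genes higher by at least 1 in cyp71-3 (50%) and in 11 of the other 36 (30.6%). Among B-type cyclins 6 of 9 had it, each at least 2 times, and CYCB1;4, CYCB2;4 and CYCB3;1, which were called higher too, had no match in this window. The longer form CNAACGG, which contains the core, was present in 8 of 54 promoters (14.8%), 6 of them B-type cyclins, beside 4.5% of protein-coding genes. It was present in 6 of the 18 genes (33.3%) and in 2 of the other 36 (5.56%). Those 2, CYCB2;1 and AUR2, were called higher in cyp71-3 too, at 0.91 and 0.98, just under the cut of 1. An E2F site written as TTTCCCGC, TTTGGCGC or TTCCCGCC was present before CYCD3;3 (AT3G50070) and RBR1 (AT3G12280) alone, beside 1.2% of protein-coding genes. A match is a run of letters and was not tested as a binding site.

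A-type cyclins act from S phase to mitosis, and 5 of 7 tested were called higher in cyp71-3, with a median log2 change of 0.71, while se-1 had 2 called higher and 0 lower of 7 tested (median log2 change 0.20). The se-1 share of 28.6% higher lay near the 25.1% of all tested genes. CYCA1;1 (AT1G44110), an A-type cyclin expressed late in the cycle, had 16.48, 17.49 and 16.57 FPKM in cyp71-3, 6.48, 6.79 and 6.05 FPKM in se-1, and 6.31, 6.39 and 6.94 FPKM in Col-0 (log2 change in cyp71-3 1.24 ± 0.06, adjusted p = 2.38e-08, limma). It stood at 2.57-fold the Col-0 mean in cyp71-3, while se-1 and Col-0 overlapped (log2 change in se-1 -0.02 ± 0.06, not called). CYCA3;2 (AT1G47210), of a subgroup known from tobacco to peak around the start of S phase, had 26.04, 26.93 and 28.32 FPKM in cyp71-3, 18.21, 18.16 and 18.54 FPKM in se-1, and 12.63, 12.14 and 12.49 FPKM in Col-0. Here the genotypes did not overlap, with log2 changes of 1.07 ± 0.05 in cyp71-3 (limma adjusted p = 7.3e-09) and 0.52 ± 0.05 in se-1 (limma adjusted p = 3.95e-06). CYCA2;4 (AT1G80370) had 7.22, 8.22 and 7.30 FPKM in cyp71-3, 2.96, 4.11 and 4.51 FPKM in se-1, and 3.16, 3.67 and 2.66 FPKM in Col-0. It was high in cyp71-3 (1.05 ± 0.13, limma adjusted p = 2.85e-05), and se-1 overlapped Col-0. Its se-1 change, 0.22 ± 0.13 and not called, was a call without se-1 replicate 1 (log2 change 0.36, adjusted p = 0.0238).

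CYCA2;2 (AT5G11300) and CYCA3;1 (AT5G43080) were called higher in cyp71-3 by 0.71 ± 0.15 and 0.59 ± 0.09. CYCA2;3 (AT1G15570), which acts with CDKB1;1 (AT3G54180) to hold cells in the mitotic cycle, differed from its class. It averaged 10.2 ± 0.63 FPKM in cyp71-3, 11.6 ± 1.2 FPKM in se-1 and 9.30 ± 0.97 FPKM in Col-0 (SD, n = 3 each), and was called in se-1 alone (0.29 ± 0.09, adjusted p = 0.0167, limma). That call was lost without se-1 replicate 1 or 3, or Col-0 replicate 2, and with weighting of libraries (log2 change 0.21 to 0.28, adjusted p = 0.0502 to 0.0703). CYCA3;4 (AT1G47230) was called in neither mutant, with log2 changes of 0.13 ± 0.07 in cyp71-3 and -0.01 ± 0.07 in se-1.

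D-type cyclins link growth signals to the start of the cycle. In cyp71-3, 5 of 9 were called higher and 2 lower, with a median log2 change of 0.24. These are shares of 55.6% and 22.2%, beside 30.6% and 32.7% of all tested genes. In se-1 the class had 4 called higher and 0 lower of 9 tested (median log2 change 0.21). The se-1 share of 44.4% higher stands beside 25.1% of all tested genes. CYCD1;1 (AT1G70210) had 22.47, 22.44 and 23.39 FPKM in cyp71-3, 10.97, 11.34 and 9.09 FPKM in se-1, and 10.54, 12.26 and 11.64 FPKM in Col-0. It stood at 1.98-fold the Col-0 mean in cyp71-3 (0.93 ± 0.08, adjusted p = 1.42e-06, limma), and se-1 overlapped Col-0. CYCD3;2 (AT5G67260), one of the 3 CYCD3 genes that keep leaf cells dividing, had 44.64, 45.72 and 45.14 FPKM in cyp71-3, 62.05, 62.43 and 68.43 FPKM in se-1, and 66.70, 62.35 and 62.93 FPKM in Col-0. It fell in cyp71-3, where all 3 libraries lay below the other 6 (-0.49 ± 0.05, adjusted p = 2.63e-06, limma), and se-1 overlapped Col-0.

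The 3 CYCD3 genes thus did not move as one. CYCD3;1 (AT4G34160), induced by cytokinin, was called higher in both mutants, by 0.40 ± 0.06 in cyp71-3 and 0.41 ± 0.06 in se-1 (limma adjusted p = 0.000162 and 0.000196). CYCD3;3 was called higher by 0.24 ± 0.06 in cyp71-3 and 0.62 ± 0.06 in se-1 (limma adjusted p = 0.00505 and 6.71e-06). CYCD3;3 was the D-type cyclin with the largest change in se-1, with 23.32, 22.70 and 23.42 FPKM there against 14.53, 15.06 and 14.52 FPKM in Col-0.

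CYCD2;1 (AT2G22490) had 14.50, 15.11 and 14.91 FPKM in cyp71-3, 19.48, 19.79 and 19.47 FPKM in se-1, and 16.57, 15.71 and 16.55 FPKM in Col-0. Its 3 genotypes were separate, with cyp71-3 lowest and se-1 highest. The rise in se-1 was 0.25 ± 0.05 (limma adjusted p = 0.000831), and the fall in cyp71-3 was small (-0.13 ± 0.05, adjusted p = 0.0333, limma). The call in cyp71-3 was lost without cyp71-3 replicate 1 or 3, or Col-0 replicate 1 or 3 (log2 change -0.13 to -0.11, adjusted p = 0.0648 to 0.0969). CYCD4;1 (AT5G65420), known from the stomatal lineage of the hypocotyl, was called higher by 0.69 ± 0.12 in cyp71-3 and 0.41 ± 0.12 in se-1. The se-1 call was lost without se-1 replicate 3, or Col-0 replicate 1 or 2 (log2 change 0.31 to 0.37, adjusted p = 0.0505 to 0.0598). CYCD4;2 (AT5G10440) was called higher in cyp71-3 by 0.31 ± 0.12 (limma adjusted p = 0.044), a call lost without cyp71-3 replicate 2 or 3, or Col-0 replicate 1, 2 or 3, and with median centring of the libraries, pseudocount 0.1 and quantile normalization (log2 change 0.21 to 0.46, adjusted p = 0.0531 to 0.169).

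CYCD5;1 (AT4G37630) and CYCD6;1 (AT4G03270), a cyclin of the root ground tissue, were called in neither mutant. CYCD5;1 changed by -0.15 ± 0.07 in cyp71-3 and became a call without cyp71-3 replicate 2, and with quantile normalization (log2 change -0.20, adjusted p = 0.0291 to 0.0358). CYCD6;1 changed by 0.22 ± 0.10 in cyp71-3 and 0.21 ± 0.10 in se-1, not called. The first became a call without Col-0 replicate 1 (log2 change 0.32, adjusted p = 0.0146), and the second without Col-0 replicate 1, and with weighting of libraries (log2 change 0.27 to 0.31, adjusted p = 0.0221 to 0.0342).

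The CDKs and CKS subunits had 6 called higher and 0 lower of 7 tested (median log2 change 0.83) in cyp71-3 and 2 called higher and 0 lower of 7 tested (median log2 change 0.16) in se-1. The se-1 share, 28.6% higher, was near the 25.1% of all tested genes. CDKA;1 (AT3G48750), the Arabidopsis counterpart of the yeast kinase Cdc2, averaged 34.4 ± 1.0 FPKM in cyp71-3, 37.6 ± 2.9 FPKM in se-1 and 35.5 ± 1.3 FPKM in Col-0 (SD, n = 3 each). Its log2 change was -0.04 ± 0.06 in cyp71-3 with a 95% interval of -0.17 to 0.08, and 0.08 ± 0.06 in se-1, and neither was called. The se-1 change was a call with weighting of libraries (log2 change 0.14, adjusted p = 0.0394). The 4 B-type CDKs, which are made in G2 and mitosis, were all called higher in cyp71-3. CDKB2;2 (AT1G20930) had 18.19, 20.73 and 18.71 FPKM in cyp71-3, 9.69, 7.46 and 7.53 FPKM in se-1, and 7.45, 6.50 and 7.63 FPKM in Col-0 (log2 change in cyp71-3 1.30 ± 0.10, adjusted p = 4.45e-07, limma). CDKB1;2 (AT2G38620) had 10.87, 10.45 and 12.22 FPKM in cyp71-3, 3.68, 5.02 and 5.05 FPKM in se-1, and 4.40, 3.74 and 5.01 FPKM in Col-0 (log2 change in cyp71-3 1.18 ± 0.12, adjusted p = 5.13e-06, limma). For each, cyp71-3 lay above all other libraries, and se-1 overlapped Col-0.

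CDKB1;1 had 12.64, 13.84 and 12.69 FPKM in cyp71-3, 8.52, 6.89 and 8.57 FPKM in se-1, and 5.99, 5.52 and 5.70 FPKM in Col-0. It was higher in both mutants, by 1.06 ± 0.08 in cyp71-3 (limma adjusted p = 6.27e-07) and 0.41 ± 0.08 in se-1 (limma adjusted p = 0.00154). CDKB2;1 (AT1G76540) was called in cyp71-3 at 0.83 ± 0.09 (limma adjusted p = 1.38e-05) and not in se-1 (0.01 ± 0.09). The CKS proteins are small subunits that dock CDKs to their substrates. CKS2 (AT2G27970) was called higher by 0.77 ± 0.07 in cyp71-3 and 0.30 ± 0.07 in se-1, and CKS1 (AT2G27960) by 0.36 ± 0.07 in cyp71-3. CKS1 changed by 0.16 ± 0.07 in se-1, not called, and became a call without se-1 replicate 1, and with weighting of libraries (log2 change 0.18 to 0.24, adjusted p = 0.0162 to 0.0318).

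KRP proteins bind and inhibit CDK complexes, and had 3 called higher and 2 lower of 7 tested (median log2 change 0.16) in cyp71-3 and 2 called higher and 2 lower of 7 tested (median log2 change -0.02) in se-1. These are shares of 42.9% higher and 28.6% lower in cyp71-3, beside 30.6% and 32.7% of all tested genes, and of 28.6% each way in se-1, beside 25.1%, so as a class they lay near the background. KRP4 (AT2G32710) had 12.63, 15.51 and 13.56 FPKM in cyp71-3, 25.38, 26.22 and 29.86 FPKM in se-1, and 21.20, 22.98 and 19.90 FPKM in Col-0. The mutants lay on opposite sides of Col-0 with no overlap: KRP4 fell in cyp71-3 (-0.59 ± 0.08, adjusted p = 8.41e-05, limma) and rose in se-1 (0.33 ± 0.08, adjusted p = 0.00634, limma). KRP3 (AT5G48820) had 6.07, 7.73 and 6.52 FPKM in cyp71-3, 5.43, 5.70 and 6.57 FPKM in se-1, and 3.93, 4.27 and 3.68 FPKM in Col-0. It was higher in both mutants, by 0.64 ± 0.10 in cyp71-3 (limma adjusted p = 0.000144) and 0.47 ± 0.10 in se-1 (limma adjusted p = 0.00191).

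KRP1, also known as ICK1, had 25.00, 22.75 and 23.80 FPKM in cyp71-3, 17.70, 20.21 and 18.87 FPKM in se-1, and 25.79, 26.55 and 26.78 FPKM in Col-0. Every mutant library lay below every Col-0 library, with log2 changes of -0.14 ± 0.06 in cyp71-3 and -0.46 ± 0.06 in se-1 (limma adjusted p = 0.0456 and 4.08e-05). The cyp71-3 call was lost without cyp71-3 replicate 2 or 3, or se-1 replicate 3, or Col-0 replicate 1, 2 or 3, and with no filter on level, a fit with no intensity trend and quantile normalization (log2 change -0.16 to -0.08, adjusted p = 0.0502 to 0.226). KRP6 (AT3G19150) had 10.34, 10.26 and 10.15 FPKM in cyp71-3, 6.47, 7.35 and 7.34 FPKM in se-1, and 8.12, 8.20 and 10.36 FPKM in Col-0. It was called lower in se-1 (-0.29 ± 0.09, adjusted p = 0.017, limma), and cyp71-3 overlapped Col-0 through Col-0 replicate 3. The se-1 call was lost without se-1 replicate 1, or Col-0 replicate 3 (log2 change -0.24 to -0.19, adjusted p = 0.0602 to 0.0617). Its cyp71-3 change, 0.19 ± 0.09, became a call without Col-0 replicate 3 (log2 change 0.30, adjusted p = 0.00599).

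KRP2 (AT3G50630) and KRP5 (AT3G24810) were called higher in cyp71-3 by 0.16 ± 0.06 and 0.27 ± 0.11 (limma adjusted p = 0.0349 and 0.0475), and for each the libraries of cyp71-3 and Col-0 overlapped. The KRP2 call was lost without cyp71-3 replicate 1 or 2, or Col-0 replicate 1 or 2 (log2 change 0.12 to 0.15, adjusted p = 0.0901 to 0.139). In se-1 KRP2 changed by -0.16 ± 0.06, not called, and was a call without Col-0 replicate 2, and with a filter of 5 FPKM, median centring of the libraries and quantile normalization (log2 change -0.20 to -0.16, adjusted p = 0.0251 to 0.0446). The KRP5 call was lost without cyp71-3 replicate 1 or 2, or se-1 replicate 1 or 2, or Col-0 replicate 2 or 3, and with a filter of 0.1 FPKM, median centring of the libraries, no filter on level, a fit with no intensity trend, a fit of the 2 genotypes alone and quantile normalization (log2 change 0.16 to 0.29, adjusted p = 0.0509 to 0.203). KRP7 (AT1G49620) was called in neither mutant, at -0.07 ± 0.09 in cyp71-3 and -0.02 ± 0.09 in se-1.

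The E2F, RBR1 and MYB3R genes had 2 called higher and 2 lower of 6 tested (median log2 change 0.01) in cyp71-3 and 3 called higher and 1 lower of 6 tested (median log2 change 0.22) in se-1. In cyp71-3 these are shares of 33.3% each way, beside 30.6% and 32.7% of all tested genes, so there the class lay near the background. In se-1 the shares were 50% higher and 16.7% lower, beside 25.1% each way. MYB3R4 (AT5G11510) encodes an activator of G2 and mitotic genes, and had 9.30, 9.36 and 9.17 FPKM in cyp71-3, 5.34, 4.86 and 4.21 FPKM in se-1, and 3.04, 3.1 and 3.32 FPKM in Col-0. The genotypes formed 3 separate steps, with cyp71-3 at 2.94-fold and se-1 at 1.52-fold the Col-0 mean (log2 changes 1.31 ± 0.08, adjusted p = 1.16e-07 in cyp71-3 and 0.48 ± 0.08, adjusted p = 0.000555 in se-1, limma). MYB3R1 (AT4G32730), a relative with both activating and repressing roles, was not called, at 0.07 ± 0.07 in cyp71-3 and 0.17 ± 0.07 in se-1. Its se-1 change became a call without se-1 replicate 3, and with weighting of libraries (log2 change 0.19 to 0.24, adjusted p = 0.0115 to 0.0226).

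RBR1, the plant retinoblastoma homologue that holds E2F factors in check, had 19.25, 18.86 and 19.95 FPKM in cyp71-3, 22.82, 20.49 and 19.95 FPKM in se-1, and 24.33, 23.97 and 24.47 FPKM in Col-0. All 6 mutant libraries lay below the 3 Col-0 libraries (-0.31 ± 0.05, adjusted p = 0.00039 in cyp71-3 and -0.20 ± 0.05, adjusted p = 0.0108 in se-1, limma). E2FA (AT2G36010), an activator of S phase genes, had 5.73, 5.75 and 6.17 FPKM in cyp71-3, 9.28, 8.59 and 7.84 FPKM in se-1, and 7.73, 6.62 and 6.60 FPKM in Col-0. It was lowest in cyp71-3 and highest in se-1, with no overlap, but the changes were small: -0.21 ± 0.08 in cyp71-3 and 0.26 ± 0.08 in se-1 (limma adjusted p = 0.0394 and 0.0191). The cyp71-3 call was lost without cyp71-3 replicate 1 or 2, or se-1 replicate 2, or Col-0 replicate 1, and with no filter on level (log2 change -0.21 to -0.15, adjusted p = 0.0551 to 0.16), and the se-1 call without se-1 replicate 1 or 2, or Col-0 replicate 2 or 3 (log2 change 0.21 to 0.26, adjusted p = 0.0527 to 0.0702). E2FC (AT1G47870), described as a repressor of division, was called higher in both mutants, by 0.36 ± 0.07 in cyp71-3 and 0.39 ± 0.07 in se-1, and E2FB (AT5G22220) in neither, at -0.05 ± 0.09 in cyp71-3 and 0.03 ± 0.09 in se-1.

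APC/C activators choose which proteins the complex destroys, and had 3 called higher and 0 lower of 5 tested (median log2 change 0.89) in cyp71-3 and 3 called higher and 1 lower of 5 tested (median log2 change 0.19) in se-1. The share called higher was 60% in each mutant, beside 30.6% of all tested genes in cyp71-3 and 25.1% in se-1. CDC20.1 (AT4G33270), the CDC20 gene with the higher level here, had 29.14, 29.91 and 29.02 FPKM in cyp71-3, 13.26, 12.03 and 12.70 FPKM in se-1, and 12.18, 10.11 and 10.67 FPKM in Col-0 (log2 change in cyp71-3 1.34 ± 0.07, adjusted p = 1.67e-08, limma). The cyp71-3 libraries lay above all others, at 2.67-fold the Col-0 mean. In se-1 CDC20.1 overlapped Col-0 and was called at 0.19 ± 0.07, adjusted p = 0.0315 (limma), a call lost without se-1 replicate 1 or 3, or Col-0 replicate 2 or 3, and with weighting of libraries and a fit of the 2 genotypes alone (log2 change 0.14 to 0.19, adjusted p = 0.0596 to 0.122). CDC20.2 (AT4G33260) was called higher by 0.94 ± 0.07 in cyp71-3 (limma adjusted p = 2.58e-07) and 0.19 ± 0.07 in se-1 (limma adjusted p = 0.0329), and the se-1 call was lost without se-1 replicate 2 or 3, or Col-0 replicate 1 or 2, and with a fit of the 2 genotypes alone and quantile normalization (log2 change 0.15 to 0.19, adjusted p = 0.0658 to 0.118).

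The CCS52 genes went separate ways. CCS52B (AT5G13840), which is expressed from G2 into mitosis, was called higher in cyp71-3 by 0.89 ± 0.08 (limma adjusted p = 1.29e-06) and not in se-1 (0.01 ± 0.08). CCS52A1 (AT4G22910), which drives the switch to endoreduplication, was called in se-1 alone, at 0.34 ± 0.07, adjusted p = 0.00156 (limma), and averaged 5.86 ± 0.089 FPKM in cyp71-3, 7.28 ± 0.34 FPKM in se-1 and 5.54 ± 0.33 FPKM in Col-0 (SD, n = 3 each). CCS52A2 (AT4G11920), which acts in meristem upkeep as well, had 5.00, 4.97 and 4.87 FPKM in cyp71-3, 3.91, 4.12 and 3.24 FPKM in se-1, and 4.92, 4.97 and 4.64 FPKM in Col-0. Only the se-1 libraries stood apart, below both other genotypes (-0.30 ± 0.09, adjusted p = 0.0121 against Col-0, limma).

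Aurora kinases phosphorylate histone H3 and spindle proteins in mitosis, and all 3 were called higher in cyp71-3 (median log2 change 1.20), while in se-1 2 were called higher and 1 lower. AUR1 (AT4G32830) had 17.22, 19.61 and 19.25 FPKM in cyp71-3, 7.31, 7.89 and 8.58 FPKM in se-1, and 6.01, 5.39 and 5.94 FPKM in Col-0. AUR3 (AT2G45490), the kinase found at centromeres, had 6.84, 7.74 and 7.36 FPKM in cyp71-3, 3.39, 3.49 and 3.22 FPKM in se-1, and 2.42, 2.96 and 2.52 FPKM in Col-0. Both were highest in cyp71-3 and intermediate in se-1 with no overlap, with changes of 1.54 ± 0.08 for AUR1 and 1.20 ± 0.09 for AUR3 in cyp71-3 (limma adjusted p = 1.57e-08 and 3.29e-07). In se-1 they changed by 0.40 ± 0.08 and 0.27 ± 0.09 (limma adjusted p = 0.0011 and 0.0222), and the AUR3 call was lost without se-1 replicate 2, or Col-0 replicate 1 or 3, and with quantile normalization (log2 change 0.21 to 0.25, adjusted p = 0.055 to 0.0754). AUR2 (AT2G25880), which shares a role in oriented division with AUR1, had 17.42, 19.94 and 20.80 FPKM in cyp71-3, 7.10, 7.11 and 7.91 FPKM in se-1, and 9.50, 9.26 and 9.12 FPKM in Col-0. It was high in cyp71-3 (0.98 ± 0.07, adjusted p = 3.83e-07, limma) and, unlike AUR1, low in se-1 (-0.30 ± 0.07, adjusted p = 0.00482, limma), with no overlap among the genotypes.

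**Figure D3:**
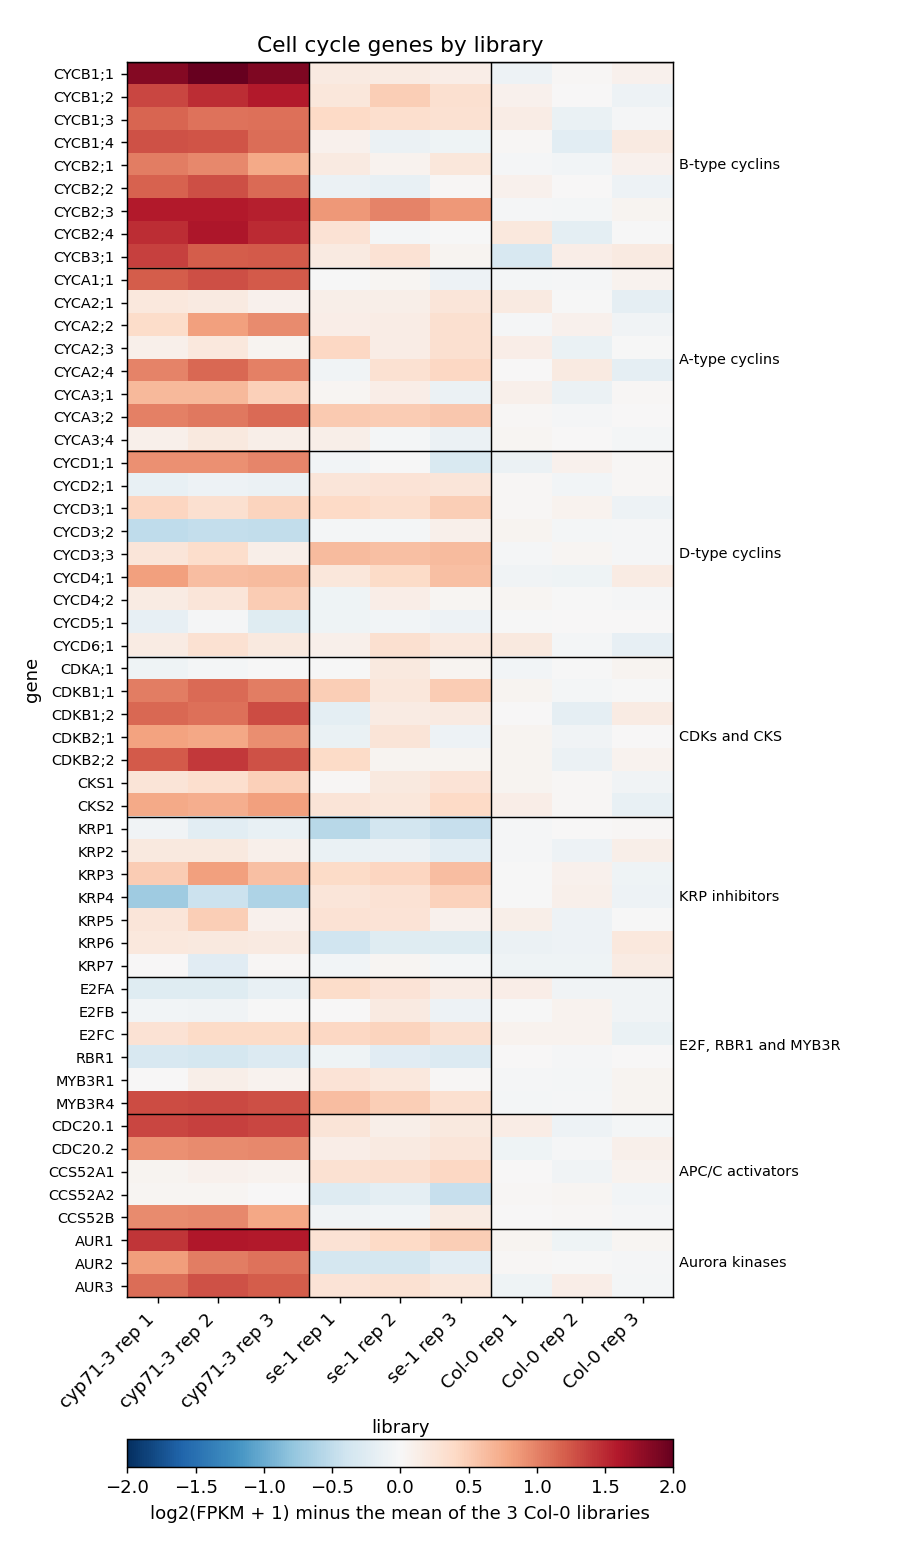
Log2(FPKM + 1) of each cell cycle gene (rows, by class) in each library (columns) minus the mean of the 3 Col-0 libraries, on a colour scale from -2 to 2 with red for higher. The red block of the 3 cyp71-3 libraries covers all B-type cyclins, the B-type CDKs, the Aurora kinases, CDC20.1, CDC20.2, CCS52B and MYB3R4, and blue marks CYCD3;2 and KRP4 in cyp71-3 and KRP1 in se-1.

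The direct comparison of cyp71-3 with se-1 tests whether the mutants differ from each other. Of 53 genes, 32 were called higher in cyp71-3 than in se-1, against 30.0% of all tested genes, and 6 lower, against 32.2% of all tested genes, out of 62.2% called in either direction. A difference of at least 1 was called for 13 genes in the direction of cyp71-3, against 3.28% of all tested genes, and for 0 genes in the direction of se-1, against 4.07% of all tested genes. The median difference was 0.48, beside 0.00 for all tested genes. The libraries of cyp71-3 and se-1 did not overlap for 39 genes, and 66.2% of all tested genes separated that way. All 9 B-type cyclins, all 4 B-type CDKs and all 3 Aurora kinases were higher in cyp71-3, including CYCB2;3 at 0.66 ± 0.07 (limma adjusted p = 6.04e-06). The widest difference was that of CYCB1;1 at 1.74 ± 0.08 (limma adjusted p = 7.75e-09).

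The 6 genes lower in cyp71-3 than in se-1 were KRP4, CYCD3;2, E2FA, CYCD3;3, CYCD2;1 and CCS52A1. KRP4 had the largest difference, -0.92 ± 0.08 (limma adjusted p = 2.47e-06), a level in cyp71-3 0.512-fold that in se-1. CYCD3;2 differed by -0.50 ± 0.05, E2FA by -0.47 ± 0.08, CYCD3;3 by -0.39 ± 0.06, CYCD2;1 by -0.38 ± 0.05 and CCS52A1 by -0.27 ± 0.07. The other way round, AUR2 differed by 1.28 ± 0.07 (limma adjusted p = 4.74e-08), and 3 KRP genes were higher in cyp71-3, KRP1 by 0.32 ± 0.06, KRP2 by 0.32 ± 0.06 and KRP6 by 0.48 ± 0.09. Calls at the edge were those of CKS1, at 0.19 ± 0.07, adjusted p = 0.0422 (limma), which was lost without cyp71-3 replicate 2 or 3, or se-1 replicate 1 or 2, or Col-0 replicate 1 or 2, and with median centring of the libraries, no filter on level, a fit with no intensity trend and a fit of the 2 genotypes alone (log2 change 0.12 to 0.21, adjusted p = 0.0523 to 0.167), and of CYCA2;2, at 0.51 ± 0.15, adjusted p = 0.0125 (limma), which was lost without cyp71-3 replicate 3 (log2 change 0.39, adjusted p = 0.0558).

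Genes that were not called in the direct comparison include CYCD3;1, E2FC and KRP3, each called higher in both mutants. Their differences were -0.01 ± 0.06 with a 95% interval of -0.15 to 0.12, -0.04 ± 0.07 with -0.19 to 0.12, and 0.17 ± 0.10 with -0.05 to 0.39. RBR1, lower in both mutants, differed by -0.12 ± 0.05, and became a call without se-1 replicate 3 (log2 change -0.15, adjusted p = 0.034). Other genes became calls in this comparison under single alternatives. CDKA;1, at -0.13 ± 0.06, did so without se-1 replicate 1, and with weighting of libraries and median centring of the libraries (log2 change -0.19 to -0.13, adjusted p = 0.0078 to 0.0499). CYCA3;4, at 0.14 ± 0.07, did so without se-1 replicate 1, and with weighting of libraries (log2 change 0.16 to 0.21, adjusted p = 0.014 to 0.0292), and CYCA2;3, at -0.17 ± 0.09, did so without se-1 replicate 2 (log2 change -0.25, adjusted p = 0.0397). CYCD4;1, at 0.28 ± 0.12, did so without se-1 replicate 3, and with weighting of libraries (log2 change 0.29 to 0.38, adjusted p = 0.0208 to 0.0328). CYCD4;2, at 0.27 ± 0.12, did so without cyp71-3 replicate 1, and with no filter on level and a fit with no intensity trend (log2 change 0.27 to 0.34, adjusted p = 0.0267 to 0.0488), and MYB3R1, at -0.10 ± 0.07, did so without se-1 replicate 3 (log2 change -0.17, adjusted p = 0.0369).

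Other genes of the cycle give the setting of these values. In cyp71-3, 30.6% of all tested genes were called higher and 32.7% lower, and in se-1 25.1% each way. The spindle and cytokinesis list had 9 called higher and 0 lower of 9 tested (median log2 change 1.18) in cyp71-3, led by HIK, a kinesin of the cell plate, at 1.55 ± 0.07 and the microtubule bundler MAP65-3 at 1.45 ± 0.07. In se-1 the same list had 2 called higher and 1 lower of 9 tested (median log2 change 0.01). Its se-1 shares, 22.2% higher and 11.1% lower, did not exceed those of all tested genes. Spindle checkpoint genes, which hold the APC/C back until chromosomes are attached, had 5 called higher and 0 lower of 6 tested (median log2 change 0.92) in cyp71-3, with BUB3.1 at 1.01 ± 0.08 and MAD2 at 0.94 ± 0.10, and 1 called higher and 1 lower of 6 tested (median log2 change 0.10) in se-1. Their se-1 shares were 16.7% each way. APC/C subunits and regulators had 10 called higher and 0 lower of 14 tested (median log2 change 0.49) in cyp71-3, led by PANS1, a protector of sister chromatid cohesion, at 1.42 ± 0.08, and 5 called higher and 1 lower of 14 tested (median log2 change 0.07) in se-1. The se-1 shares of this list were 35.7% higher and 7.14% lower.

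DNA replication genes behaved otherwise. They had 10 called higher and 0 lower of 15 tested (median log2 change 0.24) in cyp71-3 and 13 called higher and 0 lower of 15 tested (median log2 change 0.39) in se-1, and in the direct comparison 1 was higher and 9 lower in cyp71-3 than in se-1. The shares called higher were 66.7% in cyp71-3 and 86.7% in se-1, beside 30.6% and 25.1% of all tested genes. In the direct comparison 60% were lower, beside 32.2% of all tested genes. TSO2, a subunit of the enzyme that makes deoxynucleotides, changed most in cyp71-3, at 0.65 ± 0.04. PCNA1, the sliding clamp of DNA polymerase, changed most in se-1, at 0.70 ± 0.06, with PCNA2 at 0.64 ± 0.06. Other cyclins and CDK kinases had 4 called higher and 0 lower of 7 tested (median log2 change 0.37) in cyp71-3, led by the CDK-inhibiting kinase WEE1 at 1.38 ± 0.11, and 4 called higher and 0 lower of 7 tested (median log2 change 0.24) in se-1. The share called higher was 57.1% in each mutant. Other cell cycle transcription factors had 8 called higher and 0 lower of 9 tested (median log2 change 0.32) in cyp71-3 and 4 called higher and 0 lower of 9 tested (median log2 change 0.14) in se-1, where DPA, the partner of E2F factors, changed most at 0.97 ± 0.06. Their shares called higher were 88.9% in cyp71-3 and 44.4% in se-1. SIAMESE-RELATED inhibitors, the second family of plant CDK inhibitors, had 2 called higher and 3 lower of 9 tested (median log2 change -0.24) in cyp71-3, with SMR4 at 1.04 ± 0.15 and SMR1 at -0.79 ± 0.05, and 3 called higher and 1 lower of 9 tested (median log2 change 0.26) in se-1. For this family the shares in cyp71-3 were 22.2% higher and 33.3% lower, beside 30.6% and 32.7% of all tested genes. In se-1 they were 33.3% and 11.1%, beside 25.1% each way.

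**Figure D4:**
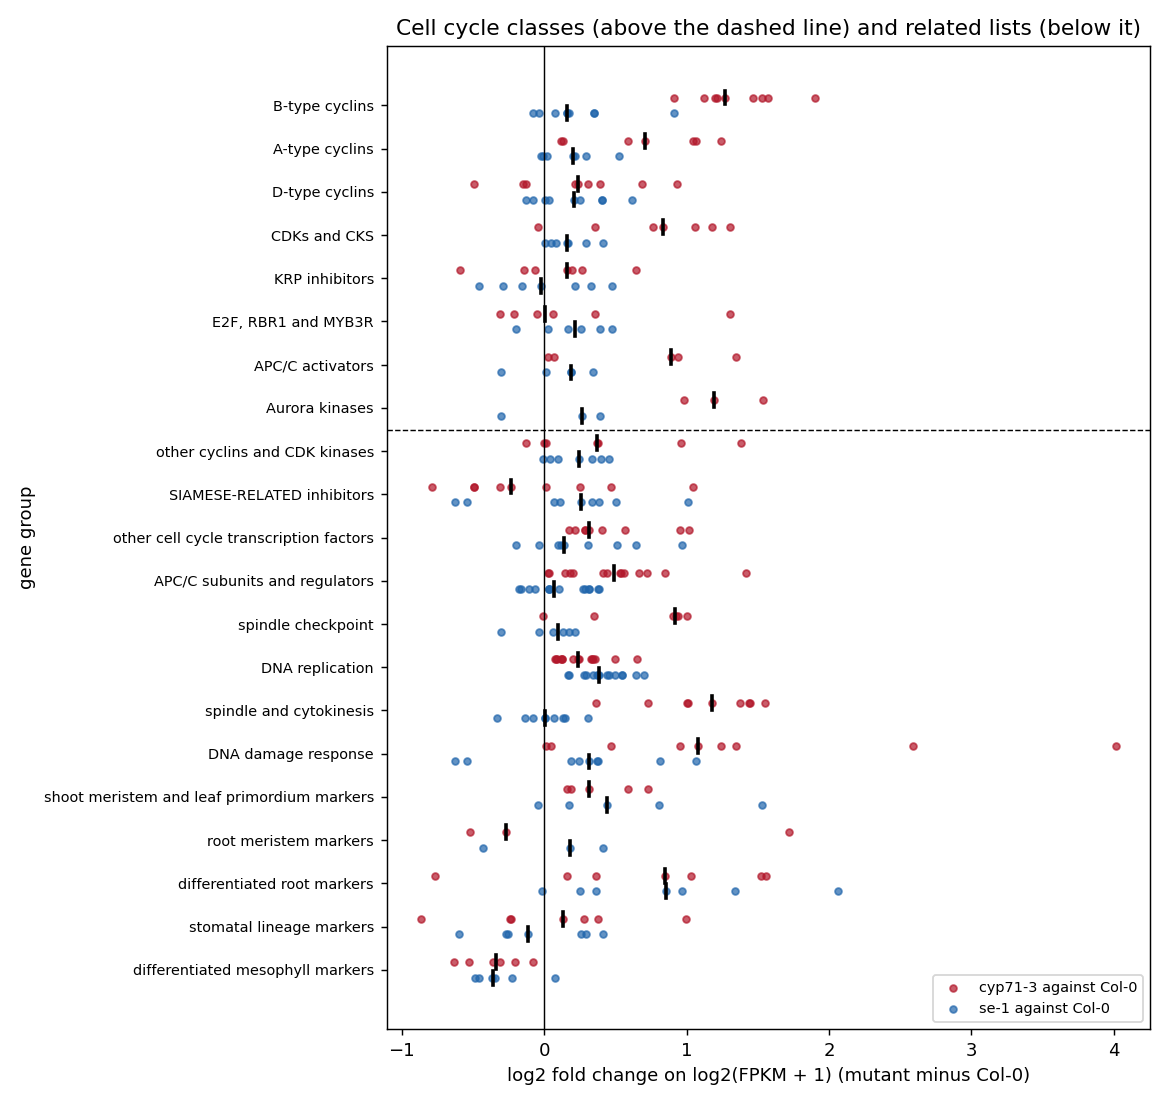
Log2 fold change on log2(FPKM + 1) of each tested gene (points) in cyp71-3 (red) and se-1 (blue) against Col-0, by class of cell cycle gene above the dashed line and by related list below it, with the median as a black bar. The median in cyp71-3 is 1.27 for B-type cyclins and 1.18 for spindle and cytokinesis genes, and one DNA damage gene, NAC044, reaches 4.01.

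Genes of the DNA damage response are given because plants switch on CYCB1;1 and WEE1 after damage through the factor SOG1. The list, which shares SMR5 and SMR7 with the SIAMESE-RELATED inhibitors, had 7 called higher and 0 lower of 9 tested (median log2 change 1.08) in cyp71-3, and 5 called higher and 1 lower of 9 tested (median log2 change 0.32) in se-1. The shares called higher were 77.8% and 55.6%, beside 30.6% and 25.1% of all tested genes. NAC044, a transcription factor that holds damaged cells in G2, had 24.01, 25.35 and 25.59 FPKM in cyp71-3, 2.50, 2.52 and 2.10 FPKM in se-1, and 0.59, 0.34 and 0.95 FPKM in Col-0. It stood far above the other libraries in cyp71-3 (4.01 ± 0.12, adjusted p = 4.25e-10, limma) and was higher in se-1 as well (1.07 ± 0.12, adjusted p = 2.8e-05, limma). GMI1, a repair gene induced by SOG1, changed by 2.59 ± 0.10 in cyp71-3. Not every gene of the list rose there. SMR5 had 16.89 to 21.39 FPKM in cyp71-3 and 11.75 to 27.61 FPKM in Col-0. SOG1 itself had 6.87 to 8.39 FPKM in cyp71-3 and 6.17 to 8.08 FPKM in Col-0. For both, the cyp71-3 and Col-0 libraries overlapped. The part of the damage response in the levels of the cell cycle genes was not tested.

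Markers of tissues that differ in how much they divide also moved. Beside their counts, 30.6% of all tested genes were called higher and 32.7% lower in cyp71-3, and 25.1% each way in se-1. Shoot meristem and leaf primordium markers had 4 called higher and 0 lower of 5 tested (median log2 change 0.32) in cyp71-3 and 3 called higher and 0 lower of 5 tested (median log2 change 0.44) in se-1. The levels of all 7 genes of this list summed to 33.87 to 34.56 FPKM in cyp71-3, 33.88 to 37.75 FPKM in se-1 and 25.75 to 26.93 FPKM in Col-0. Root meristem markers had 1 called higher and 2 lower of 3 tested (median log2 change -0.27) in cyp71-3, where SCR, of the root endodermis and stem cell niche, changed by -0.52 ± 0.06 and SHR by -0.27 ± 0.06, and 2 called higher and 1 lower of 3 tested (median log2 change 0.18) in se-1, where SCR changed by -0.43 ± 0.06 and SHR by 0.18 ± 0.06. The third tested, WOX5, passed the filter on level only through cyp71-3, where it is high (4.0 ± 0.46 FPKM in cyp71-3, 1.02 ± 0.19 FPKM in se-1 and 0.517 ± 0.17 FPKM in Col-0; SD, n = 3 each), so its calls support nothing. CUC2, among the shoot markers, passed only through se-1, where it is high (0.910 ± 0.035 FPKM in cyp71-3, 1.93 ± 0.16 FPKM in se-1 and 0.680 ± 0.19 FPKM in Col-0; SD, n = 3 each). The counts of these lists are therefore a description only. The levels of all 5 root meristem genes summed to 29.22 to 32.37 FPKM in cyp71-3, 33.18 to 33.72 FPKM in se-1 and 37.49 to 38.47 FPKM in Col-0. WUS and CLV3, which mark the organising centre and stem cells of the shoot meristem, had 0.06 to 0.14 and 0.23 to 0.54 FPKM in cyp71-3, 0.00 to 0.09 and 0.00 to 0.23 FPKM in se-1, and 0.00 and 0.21 to 0.40 FPKM in Col-0. PLT1 and PLT2, defining factors of the root meristem, lay under 1 FPKM in every library. The root sum rests mostly on SCR, at 17.6 ± 1.2 FPKM in cyp71-3, 18.8 ± 0.53 FPKM in se-1 and 25.7 ± 1.3 FPKM in Col-0 (SD, n = 3 each), and single markers went both ways.

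Differentiated root markers, mostly genes of root hairs and the root epidermis, had 5 called higher and 1 lower of 7 tested (median log2 change 0.85) in cyp71-3 and 6 called higher and 0 lower of 7 tested (median log2 change 0.85) in se-1, and their levels summed to 81.39 to 84.59 FPKM in cyp71-3, 106.73 to 116.10 FPKM in se-1 and 42.43 to 48.34 FPKM in Col-0. The shares called higher were 71.4% and 85.7%, beside 30.6% and 25.1% of all tested genes. IRT1, an iron transporter, changed by 1.53 ± 0.06 in cyp71-3 and 2.07 ± 0.06 in se-1. Much of the rise in the sums lay in IRT1, at 38.18 ± 0.765 FPKM in cyp71-3, 55.96 ± 1.73 FPKM in se-1 and 12.63 ± 1.13 FPKM in Col-0 (SD, n = 3 each). CASP1 was the gene called lower in cyp71-3, at 10.4 ± 0.499 FPKM there, 22.09 ± 2.15 FPKM in se-1 and 18.4 ± 2.14 FPKM in Col-0 (SD, n = 3 each). Stomatal lineage markers had 3 called higher and 3 lower of 7 tested (median log2 change 0.13) in cyp71-3 and 2 called higher and 2 lower of 7 tested (median log2 change -0.11) in se-1, with sums of 49.61 to 53.04 FPKM in cyp71-3, 47.90 to 50.59 FPKM in se-1 and 54.80 to 57.91 FPKM in Col-0. As shares these were 42.9% each way in cyp71-3, beside 30.6% and 32.7% of all tested genes. The se-1 shares were 28.6% each way, beside 25.1%. FAMA, of the guard mother cell, changed by -0.86 ± 0.06 in cyp71-3 and -0.60 ± 0.06 in se-1. BASL, another marker of this list, was higher in cyp71-3, at 6.01 ± 0.494 FPKM there, 1.97 ± 0.488 FPKM in se-1 and 2.54 ± 0.655 FPKM in Col-0 (SD, n = 3 each). Differentiated mesophyll markers, genes of photosynthesis, had 0 called higher and 5 lower of 6 tested (median log2 change -0.33) in cyp71-3 and 0 called higher and 5 lower of 6 tested (median log2 change -0.36) in se-1, with sums of 34536 to 35463 FPKM in cyp71-3, 35167 to 39221 FPKM in se-1 and 41760 to 43110 FPKM in Col-0. The share called lower was 83.3% in each mutant, beside 32.7% and 25.1% of all tested genes. None of the 5 marker lists held a gene at 0 in every library. The share of dividing tissue in the harvested seedlings is not given, and its part in the changes of the cell cycle genes was not tested.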

How the data were processed

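The submitters deposited 1 table of FPKM values per gene for each of the 9 libraries (3 each of cyp71-3, se-1 and Col-0). Per the submitters' processing notes, reads were trimmed with Trim Galore 0.6.7, aligned to TAIR10 with STAR 2.7.2b and passed to Cuffnorm and Cuffdiff. For the annotation, the scaling between libraries and the strand setting, nothing is given in the sources used here. Because FPKM are not counts, limma 3.58.1 (R 4.3.3) was fitted to log2(FPKM + 1) with an intensity trend, over all 9 libraries with genotype as the term (6 residual degrees of freedom). Genes with a mean of at least 1 FPKM were tested (19180 of 32823), two-sided, with Benjamini-Hochberg adjustment over all of them and a call at adjusted p under 0.05. The fit was checked on simulated data.

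Relative depths were estimated from the most common ratio of low values in each library to those in Col-0 replicate 1. These estimates ran between 1.0 and 1.602, the highest for se-1 replicate 3. As the scaling between libraries is not given, the ratio may hold that scaling as well as depth. The read totals are unknown, so no counting interval is given.

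The 54 genes and the 13 related lists (113 distinct genes) were chosen with earlier results of these data known. Values in every library are given for each gene called with a change of at least 1 or called lower in a mutant, and for the largest called change of each class. From each related list at most the 2 largest called changes in each mutant are named, plus WUS, CLV3, PLT1, PLT2, SHR, CASP1, SMR5 and SOG1, chosen after their values were seen. The files hold no coordinates. Promoters are 250 bases before the gene start in RefSeq TAIR10.1, matched by locus identifier for 54 of 54 genes. Alternatives were other pseudocounts, filters, scalings, weights and terms, and leaving out each library.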

Additional observations from a re-analysis of the deposited data

How the results depend on the processing

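No call of the 53 tested genes changed sign to a call in the other direction under any alternative run. Leaving aside the rule on the size of the change, in cyp71-3 against Col-0 26 of 36 higher and 3 of 6 lower calls held under every alternative, and 7 more of the higher held wherever tested but were untested at a filter of 5 FPKM. In se-1 against Col-0, 15 of 21 higher and 3 of 5 lower held, and 1 more of the lower held but was untested at that filter. In cyp71-3 against se-1, 24 of 32 higher and 6 of 6 lower held, and 6 more of the higher held but were untested there. The lost calls were named with their values, and all were lost on leaving out a single library.

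Leaving out each library in turn gave 33 to 36 higher and 3 to 6 lower in cyp71-3 against Col-0, 16 to 21 higher and 4 to 6 lower in se-1 against Col-0, and 30 to 33 higher and 6 to 8 lower in cyp71-3 against se-1. The median log2 changes ran from 0.65 to 0.71 in cyp71-3 against Col-0, from 0.16 to 0.18 in se-1 against Col-0, and from 0.45 to 0.51 in cyp71-3 against se-1, with extremes of 0.445 and 0.5104 in the last. Requiring a change of at least 1 left 18 higher and 0 lower in cyp71-3, 0 higher and 0 lower in se-1, and 13 higher and 0 lower in the direct comparison, by the construction of that rule.

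The medians for cyp71-3 against Col-0, se-1 against Col-0 and cyp71-3 against se-1 were 0.69, 0.17 and 0.48. A pseudocount of 0.1 gave 0.79, 0.21 and 0.54, and one of 0.5 gave 0.78, 0.20 and 0.51, since a smaller pseudocount shrinks low genes less. Quantile normalization gave 0.61, 0.15 and 0.51. For cyp71-3 against se-1 alone, a filter at 5 FPKM gave 0.47 with fewer genes tested, and weighting of libraries gave 0.50. The cause of the shifts under quantile normalization and weighting was not tested.

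The replicate numbers did not pair the libraries: residuals of libraries with the same number correlated at -0.137 to 0.0427, and of others at -0.0817 to 0.152. The highest, 0.152 and 0.132, joined Col-0 replicate 2 with cyp71-3 replicate 1 and with se-1 replicate 1, the libraries with the highest chloroplast shares. Between cyp71-3 replicate 1 and se-1 replicate 1 the correlation was only 0.0188. The cause of these values was not tested. With a replicate block, 34 were called higher and 4 lower in cyp71-3 against Col-0 (median 0.69), 21 and 5 in se-1 against Col-0 (median 0.17), and 32 and 6 in cyp71-3 against se-1 (median 0.48). The calls that ended with the block were those of CYCD2;1, CYCD4;2, KRP1 and KRP2 in cyp71-3.

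With 3 libraries a genotype and FPKM without read counts, small changes of genes near 1 FPKM were not detectable, and a gene that was not called was not shown to be equal between genotypes.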
